A study of Mus musculus with 3 samples.

Results

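The genes described here encode the translation initiation factors (eIF1 to eIF6), the elongation factors (eEF1 and eEF2) and the proteins named after them, read for the presence of a Setd1a peak at their promoters. They were taken by name: every protein-coding gene of the GENCODE M21 annotation on chromosomes 1 to 19 whose symbol begins with Eif followed by 1 to 6, or with Eef1 or Eef2. The rule gave 65 of 20807 protein-coding genes, of which 50 encode factors and 15 encode kinases, binding proteins or enzymes that act on the factors. A further 3 matching genes on X or Y were left out by the rule. A gene was said to have a peak when an interval of the peak list lay within 1000 bp of a transcription start site (TSS) of any of its transcripts, with the distance taken from the nearer edge of the interval and set to 0 on overlap. Setd1a is a histone H3K4 methyltransferase, and CUT & RUN cuts and releases the DNA around a protein bound by an antibody in intact cells. The assay was run on adult neural stem cells (NSCs) grown from the dentate gyrus of mice 7 to 8 weeks old and held in quiescence by BMP4 and FGF2, each at 20 ng/ml, in the absence of EGF, until day 5. The mice were Hopx-CreERT2::Setd1afl/fl::H2B-GFP, and the cultures used were labelled WT, so both Setd1a alleles were floxed in every library. There were 2 Setd1a libraries from independent cultures and 1 IgG library, and the peaks shared by both Setd1a libraries form 1 list of 6969 intervals without a height or score, of which 6911 lay on chromosomes 1 to 19. The depth of the libraries is unknown, no spread between replicates can be computed, and a gene without a peak is a gene at which this list holds no interval.

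Translation begins when eIF2 carries the initiator methionyl-tRNA to the small ribosomal subunit, where eIF1, eIF1A, eIF3 and eIF5 assemble, and the eIF4 group brings this complex to the capped end of an mRNA. After the start codon is found, eIF5B joins the large subunit, eEF1 delivers each aminoacyl-tRNA and eEF2 moves the ribosome along. The main points of control are the phosphorylation of eIF2 by stress-activated kinases and the capture of eIF4E by 4E-binding proteins, and low protein synthesis is a known property of quiescent stem cells.

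Of the 65 genes, 33 had a Setd1a peak within 1000 bp of a TSS, a share of 50.8%, against 22.5% of all protein-coding genes. The 95% Wilson interval of the share runs from 38.9% to 62.5% and covers counting over genes only, which are not replicates. At 25 of the genes the interval lay over a TSS, against 17.2% of protein-coding genes, and at the other 8 it lay beside one. The 33 genes had 33 different intervals, and they were spread over 16 of the 19 chromosomes. Among the 50 factor genes 26 had a peak, and among the 15 genes for regulators and modifying enzymes 7 had one.

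The 4 promoters printed first are those under the widest intervals, at genes for a scaffold of initiation, the subunit-joining factor, a subunit of the eIF2 exchange factor and a subunit of the eEF1 exchange factor. Each runs from 120 bases before the main TSS to 29 after it in the mm10 build, on the strand of the gene, and capitals mark the TSS, which follows the first 120 bases, and any match to the motifs spelled out later. They lie at chr7:111082990-111083139 on the minus strand (Eif4g2), chr1:37997890-37998039 on the plus strand (Eif5b), chr5:31193401-31193550 on the minus strand (Eif2b4) and chr15:75909326-75909475 on the minus strand (Eef1d). All 150 bases of each lay inside the Setd1a interval of that gene.
Eif4g2: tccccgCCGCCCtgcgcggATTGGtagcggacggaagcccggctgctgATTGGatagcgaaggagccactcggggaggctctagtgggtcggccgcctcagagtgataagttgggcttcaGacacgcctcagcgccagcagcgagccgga
Eif5b: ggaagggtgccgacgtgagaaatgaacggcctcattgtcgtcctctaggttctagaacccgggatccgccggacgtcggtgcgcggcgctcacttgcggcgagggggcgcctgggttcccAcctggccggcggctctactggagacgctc
Eif2b4: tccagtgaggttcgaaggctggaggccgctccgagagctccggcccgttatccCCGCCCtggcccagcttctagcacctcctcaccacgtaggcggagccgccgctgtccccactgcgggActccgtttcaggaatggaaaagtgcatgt
Eef1d: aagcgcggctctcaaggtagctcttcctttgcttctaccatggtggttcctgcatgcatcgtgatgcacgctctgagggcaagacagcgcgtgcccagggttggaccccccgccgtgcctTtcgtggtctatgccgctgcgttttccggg

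Of 11 pairs of related genes, 1 pair (Eif4a1 and Eif4a2) had peaks at both genes, 5 at neither and 5 at only 1 gene. The fifth of these, Eif3j1 with a peak (chr2:122028877-122029351) and Eif3j2 without, is not printed, and the promoters of the other 4 pairs are given so that they can be read side by side. Eif5a (chr11:69921929-69922078, minus strand) had a peak and Eif5a2 (chr3:28781156-28781305, plus strand) had none. Eif1 (chr11:100319765-100319914) had a peak and Eif1b (chr9:120492371-120492520) had none, both on the plus strand. Eif4e2 (chr1:87213794-87213943) had a peak and Eif4e (chr3:138526059-138526208) had none, both on the plus strand. Eif4g1 (chr16:20672603-20672752) had a peak and Eif4g3 (chr4:137993336-137993485) had none, both on the plus strand. Of the 150 bases printed, the interval covered 62 at Eif5a, 142 at Eif1, 150 at Eif4e2 and 20 at Eif4g1.
Eif5a: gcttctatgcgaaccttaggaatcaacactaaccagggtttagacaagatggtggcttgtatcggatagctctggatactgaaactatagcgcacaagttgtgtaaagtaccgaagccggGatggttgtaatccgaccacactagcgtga
Eif5a2: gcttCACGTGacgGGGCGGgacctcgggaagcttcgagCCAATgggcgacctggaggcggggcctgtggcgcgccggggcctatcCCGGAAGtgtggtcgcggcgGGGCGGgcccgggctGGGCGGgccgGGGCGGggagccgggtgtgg
Eif1: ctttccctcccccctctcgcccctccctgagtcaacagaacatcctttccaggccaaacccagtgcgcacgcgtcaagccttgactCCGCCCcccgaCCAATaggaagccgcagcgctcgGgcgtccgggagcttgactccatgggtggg
Eif1b: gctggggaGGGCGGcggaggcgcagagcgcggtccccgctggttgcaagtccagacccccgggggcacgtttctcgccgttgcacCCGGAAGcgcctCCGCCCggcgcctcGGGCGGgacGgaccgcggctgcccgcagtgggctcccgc
Eif4e2: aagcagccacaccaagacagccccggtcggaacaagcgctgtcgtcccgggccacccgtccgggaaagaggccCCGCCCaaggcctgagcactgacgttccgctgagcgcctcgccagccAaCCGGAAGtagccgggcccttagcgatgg
Eif4e: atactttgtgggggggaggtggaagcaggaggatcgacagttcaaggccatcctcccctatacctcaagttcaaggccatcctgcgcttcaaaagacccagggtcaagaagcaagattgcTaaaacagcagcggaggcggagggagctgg
Eif4g1: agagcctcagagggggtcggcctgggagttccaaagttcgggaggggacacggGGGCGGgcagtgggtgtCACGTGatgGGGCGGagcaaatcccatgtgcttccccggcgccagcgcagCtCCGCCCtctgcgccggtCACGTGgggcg
Eif4g3: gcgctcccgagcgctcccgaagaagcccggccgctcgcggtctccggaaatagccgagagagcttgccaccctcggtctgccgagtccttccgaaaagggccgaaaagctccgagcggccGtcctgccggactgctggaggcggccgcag

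The distances fell into separate ranges. The gene just inside the threshold was Eef1akmt3, with 387 bp between its TSS and the interval at chr10:127041900-127042135, and the gene just outside it was Eef1akmt2, with 6488 bp to the interval at chr7:132859161-132859827. These distances were set by the group itself, so none of its genes could lie between them. Of all protein-coding genes 1095 lay between them, a share of 5.26%. The 32 genes without a peak lay a median of 24123 bp from the nearest interval, and protein-coding genes without a peak lay a median of 89545 bp from theirs. Of the 32, 13 were nearer than 20000 bp and 14 were at 50000 bp or more, with Eif3m the farthest at 416012 bp. Within the bodies of these 32 genes the list held 1 interval, 433 bp wide, in Eif2d at chr1:131181600-131182032.

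**Figure D1:**
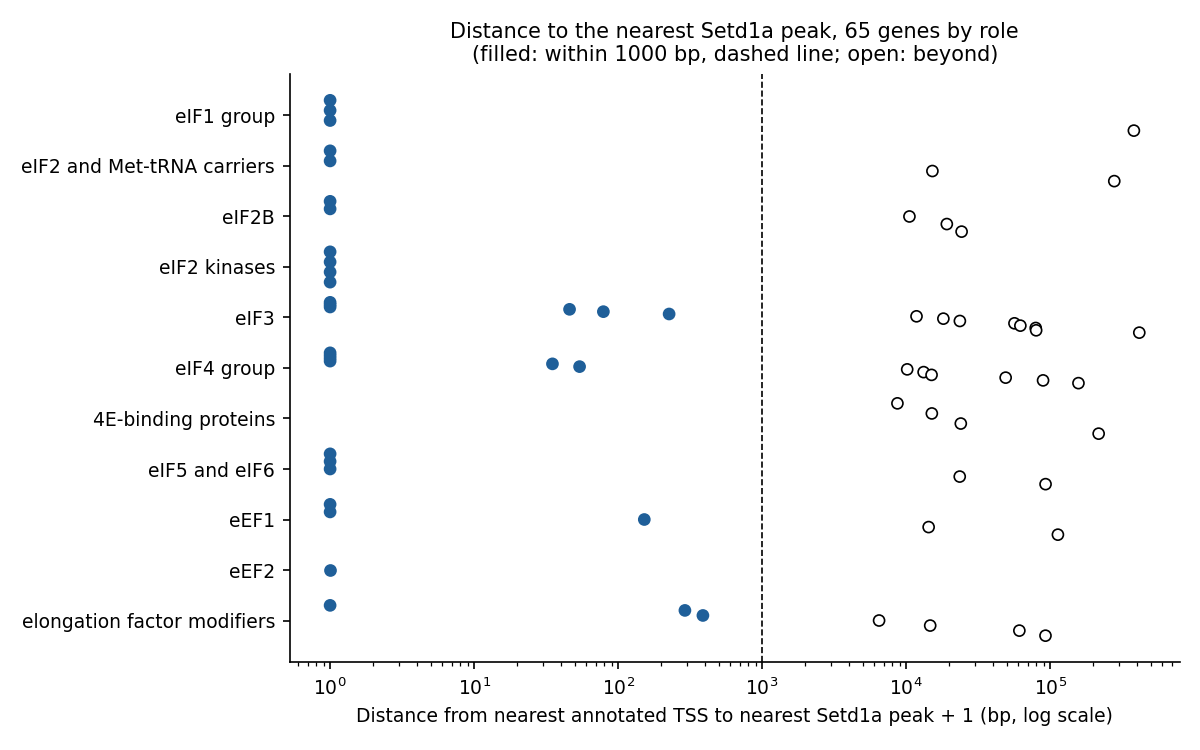
Distance in bp from the nearest annotated TSS to the nearest Setd1a interval for each of the 65 genes, on a log axis after adding 1, by role, with filled points for genes within 1000 bp (dashed line). The filled points end at 387 bp and the open points begin at 6488 bp.

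The genes that handle the start codon and the initiator tRNA were divided. In the eIF1 group 3 of 4 genes had a peak over a TSS, 314 to 776 bp wide: Eif1, whose product guards the choice of start codon, Eif1a, whose product supports scanning, and Eif1ad, which encodes a protein with an eIF1A-like domain. The interval of Eif1 was at chr11:100319463-100319906. Eif1b, the close relative of Eif1, lay 381480 bp from the nearest interval. Of the genes for eIF2 and the other carriers of methionyl-tRNA, Eif2s1, the subunit that the stress kinases phosphorylate, had a peak of 997 bp over the TSS, and Eif2a had 1 of 565 bp. Eif2s2, the beta subunit of eIF2, lay 278837 bp away, and Eif2d, an eIF2-independent carrier, 15221 bp away. Thus within the eIF2 complex itself the subunit genes on the chromosomes used differed, with Eif2s1 under an interval and Eif2s2 far from any. The interval at Eif2s1 is shared with Atp6v1d, whose TSS is nearer its midpoint, so it cannot be given to Eif2s1 alone.

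All 4 eIF2 kinase genes had a peak over a TSS. At Eif2ak1 the only TSS covered was annotated to a transcript with a retained intron. The interval there began 99 bp downstream of the main TSS. The interval was 279 bp wide at Eif2ak1, which encodes the haem-regulated kinase HRI, and 280 bp wide at Eif2ak2, which encodes PKR, the sensor of double-stranded RNA. It was 633 bp wide at Eif2ak3, which encodes PERK, the sensor of misfolded protein in the endoplasmic reticulum, and 461 bp wide at Eif2ak4, which encodes GCN2, the sensor of uncharged tRNA. Both of the narrow ones were under 300 bp, so requiring at least 300 bp left Eif2ak3 and Eif2ak4. The intervals differed in position as well, since that of Eif2ak3 ran from -590 to 42 bp relative to the main TSS and those of the other 3 began no more than 13 bp upstream of it.

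eIF2B is the exchange factor that recharges eIF2 and that phosphorylated eIF2 blocks. Of its 5 subunit genes, Eif2b3 had an interval of 881 bp and Eif2b4 one of 1524 bp, both over a TSS. Eif2b5, the catalytic subunit, lay 10542 bp from the nearest interval, Eif2b1 19166 bp and Eif2b2 24278 bp.

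eIF3 is the large scaffold that binds the small subunit, and 6 of its 14 genes had a peak. The intervals at Eif3a (997 bp), Eif3e (331 bp) and Eif3f (349 bp) lay over a TSS. Those at Eif3b, Eif3d and Eif3j1 lay 78, 45 and 225 bp from the nearest TSS, upstream of the gene at Eif3b and Eif3d and downstream of the TSS at Eif3j1. The other 8 genes were Eif3l at 11805 bp, Eif3g at 18136 bp, Eif3i at 23614 bp, Eif3k at 56520 bp, Eif3c at 62121 bp, Eif3j2 at 79401 bp, Eif3h at 79958 bp and Eif3m at 416012 bp. Genes of the complex lay either under or beside an interval or at least 11805 bp from one, and this split was not tested.

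The eIF4 group recruits mRNA through its cap, and 6 of its 12 genes had a peak. The helicase genes Eif4a1 and Eif4a2 both had one, 310 bp wide and 53 bp from a TSS at Eif4a1 and 513 bp wide over a TSS at Eif4a2. Eif4a3, whose product belongs to the exon junction complex, had an interval of 538 bp that ended 34 bp upstream of its TSS. Among the scaffold genes, Eif4g1 had a narrow interval of 268 bp (chr16:20672733-20673000) and Eif4g2, whose product lacks the eIF4E-binding region, had the widest of the group, 1968 bp (chr7:111081969-111083936), while Eif4g3 lay 15017 bp from its nearest. Eif4e, the cap-binding protein itself, lay 10171 bp from the nearest interval. Its relative Eif4e2, known as a cap-binding repressor, had an interval of 663 bp over a TSS (chr1:87213529-87214191). Eif4e1b and Eif4e3, the other cap-binding relatives, lay 89305 and 157274 bp away, and the helicase cofactors Eif4b and Eif4h lay 13224 and 49105 bp away.

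None of the 4 genes for proteins that bind eIF4E outside the eIF4F complex had a peak. Eif4enif1, which encodes the shuttling protein that carries eIF4E into the nucleus, was the nearest at 8700 bp. The 4E-binding protein genes Eif4ebp3, Eif4ebp2 and Eif4ebp1, whose products hold eIF4E until TOR phosphorylates them, lay 15082, 23968 and 217221 bp away. These genes and the eIF2 kinase genes stood at opposite ends of the counts, at 0 of 4 and 4 of 4, and the difference between sets of 4 genes was not tested.

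Of the genes numbered eIF5 and eIF6, which act at different steps, Eif5, Eif5a and Eif5b had wide intervals over a TSS. Eif5, the GTPase activator of eIF2, had 1 of 952 bp. Eif5a, whose product carries hypusine and relieves stalled ribosomes, had 1 of 909 bp (chr11:69921082-69921990). Eif5b had 1 of 1625 bp (chr1:37996799-37998423), the second widest of the 33. Eif5a2, the second eIF5A gene, lay 23560 bp away, and Eif6, whose product keeps the large subunit from joining early, lay 92945 bp away.

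Among the elongation factors, the genes of the exchange complex had peaks and those of the tRNA carrier did not. The intervals at Eef1b2 and Eef1d are shared with the neighbouring genes Ndufs1 and Tigd5. Eef1b2 had an interval of 484 bp and Eef1d one of 1216 bp over a TSS, and Eef1g had one of 561 bp that ended 151 bp upstream of its TSS. Eef1a1, the carrier used by most cells, lay 14331 bp from the nearest interval, and Eef1a2, the form of muscle and neurons, lay 113228 bp away. Eef2, the translocase, had an interval of 740 bp over its TSS and a second interval in reach, which only Eif1a also had.

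Of the 7 genes for proteins that modify or accompany the elongation factors, 3 had a peak. Eef1e1, which encodes a component of the multi-tRNA synthetase complex, had an interval of 340 bp over its TSS. Eef2k, the kinase that inhibits eEF2, had one of 1099 bp (chr7:120851479-120852577), but it lay 8648 bp downstream of the main TSS and 290 bp from an alternative TSS at position 120851189. The peak of Eef1akmt3, a lysine methyltransferase of eEF1A, was the narrowest of all 33 at 236 bp. The other eEF1A methyltransferase genes Eef1akmt2, Eef1akmt4 and Eef1akmt1 lay 6488, 61132 and 92831 bp away, and Eef2kmt, which methylates eEF2, lay 14693 bp away.

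**Figure D2:**
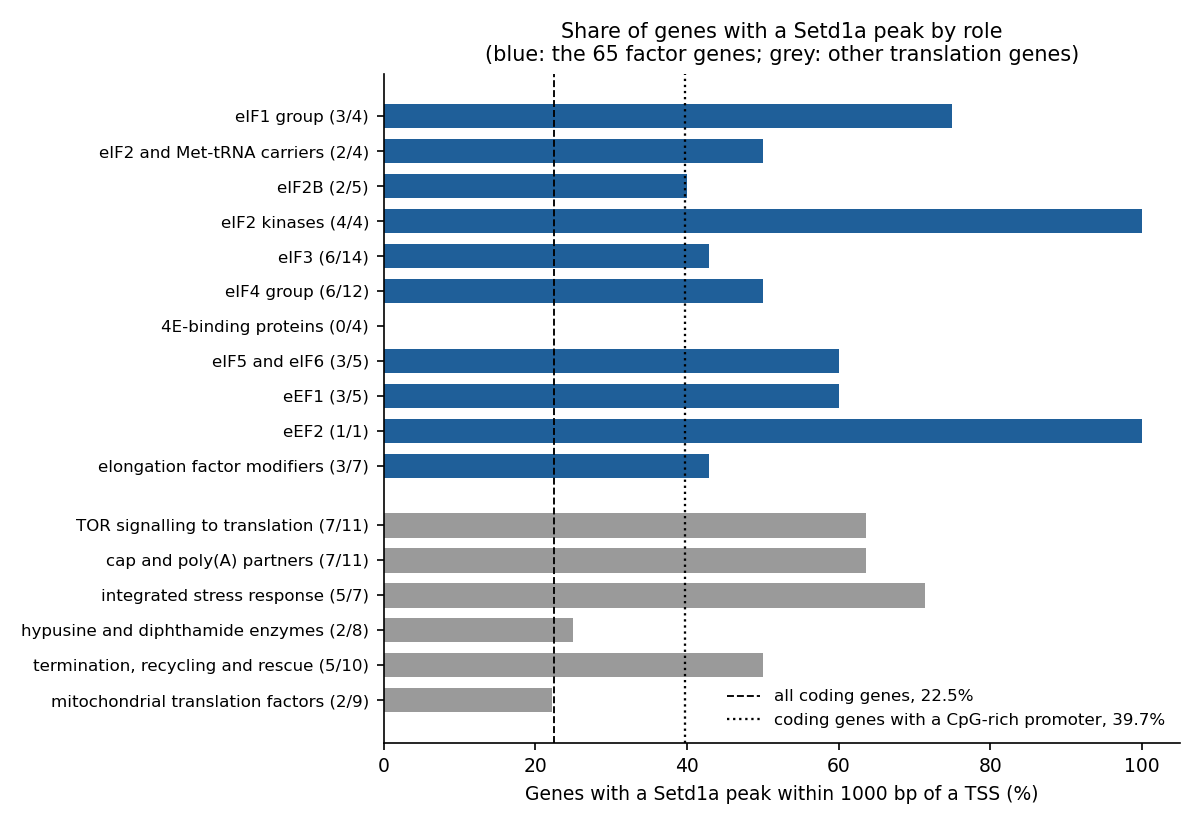
Percent of genes with a Setd1a interval within 1000 bp of a TSS for each role (blue) and for other genes of translation (grey), with the counts beside the names. The dashed line marks 22.5% of all protein-coding genes and the dotted line 39.7% of those with a CpG-rich promoter, and the bars run from 0 of 4 eIF4E-binding genes to 4 of 4 eIF2 kinase genes.

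Width was the only quantity given per peak. At the 33 genes the widths ran from 236 to 1968 bp, and the quartiles were 349, 561 and 909 bp. The 4270 intervals within 1000 bp of any protein-coding TSS had quartiles of 365, 526 and 761 bp, and 18 of the 33 were wider than the middle one. The upper end held 5 genes of the 33 at 1000 bp or more, against 10.4% of the 4270, and the lower end held 4 under 300 bp, against 13.7%. The 5 widest were those of Eif4g2, Eif5b, Eif2b4 (chr5:31192254-31193777), Eef1d (chr15:75908529-75909744) and Eef2k, and 4 of them are the promoters printed first.

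**Figure D3:**
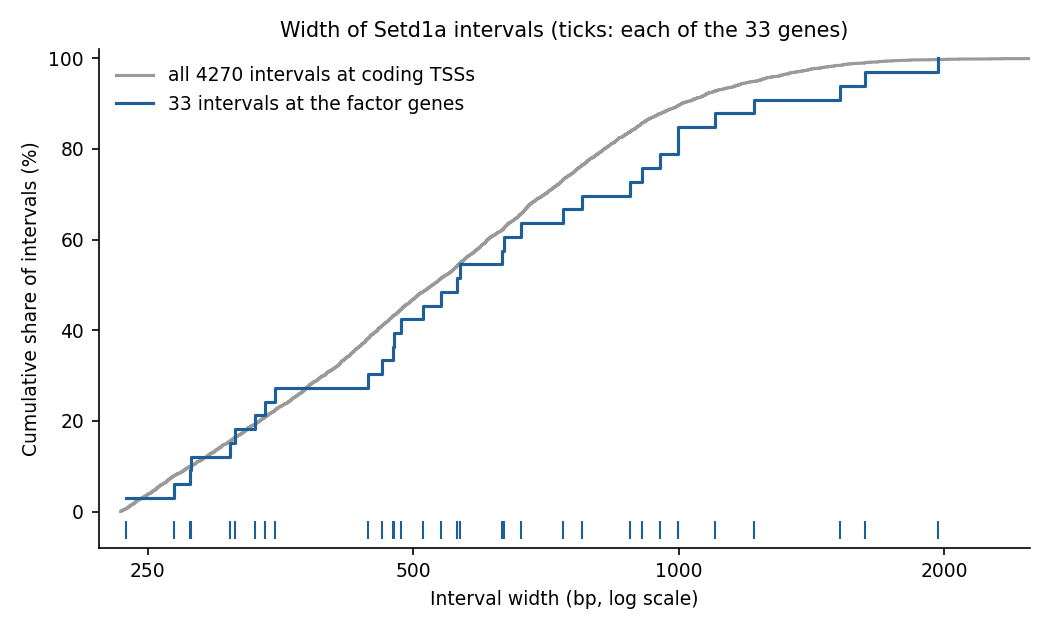
Cumulative share of intervals in percent against interval width in bp on a log axis, for the 33 intervals at the factor genes (blue, with a tick for each) and the 4270 intervals at protein-coding TSSs (grey). The medians are 561 and 526 bp, and the upper quartiles are 909 and 761 bp.

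A peak was defined by an interval within 1000 bp of a TSS, so positions near the TSS follow largely from the rule. No matching positions are given for other protein-coding genes. The main TSS is the TSS of the best-supported protein-coding transcript. At 32 of the 33 genes the interval lay within 1000 bp of it, Eef2k being the exception, and at 21 it overlapped it. Among the 32, midpoints ran from -504.5 to 568 bp relative to the TSS with a median of 39 bp, and 22 were within 300 bp. Upstream and downstream positions were about equally common, since the midpoint was upstream at 15 genes and downstream at 18 when Eef2k is counted. The interval overlapped an exon of the gene at 26 of the 33 and coding sequence at 13.

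**Figure D4:**
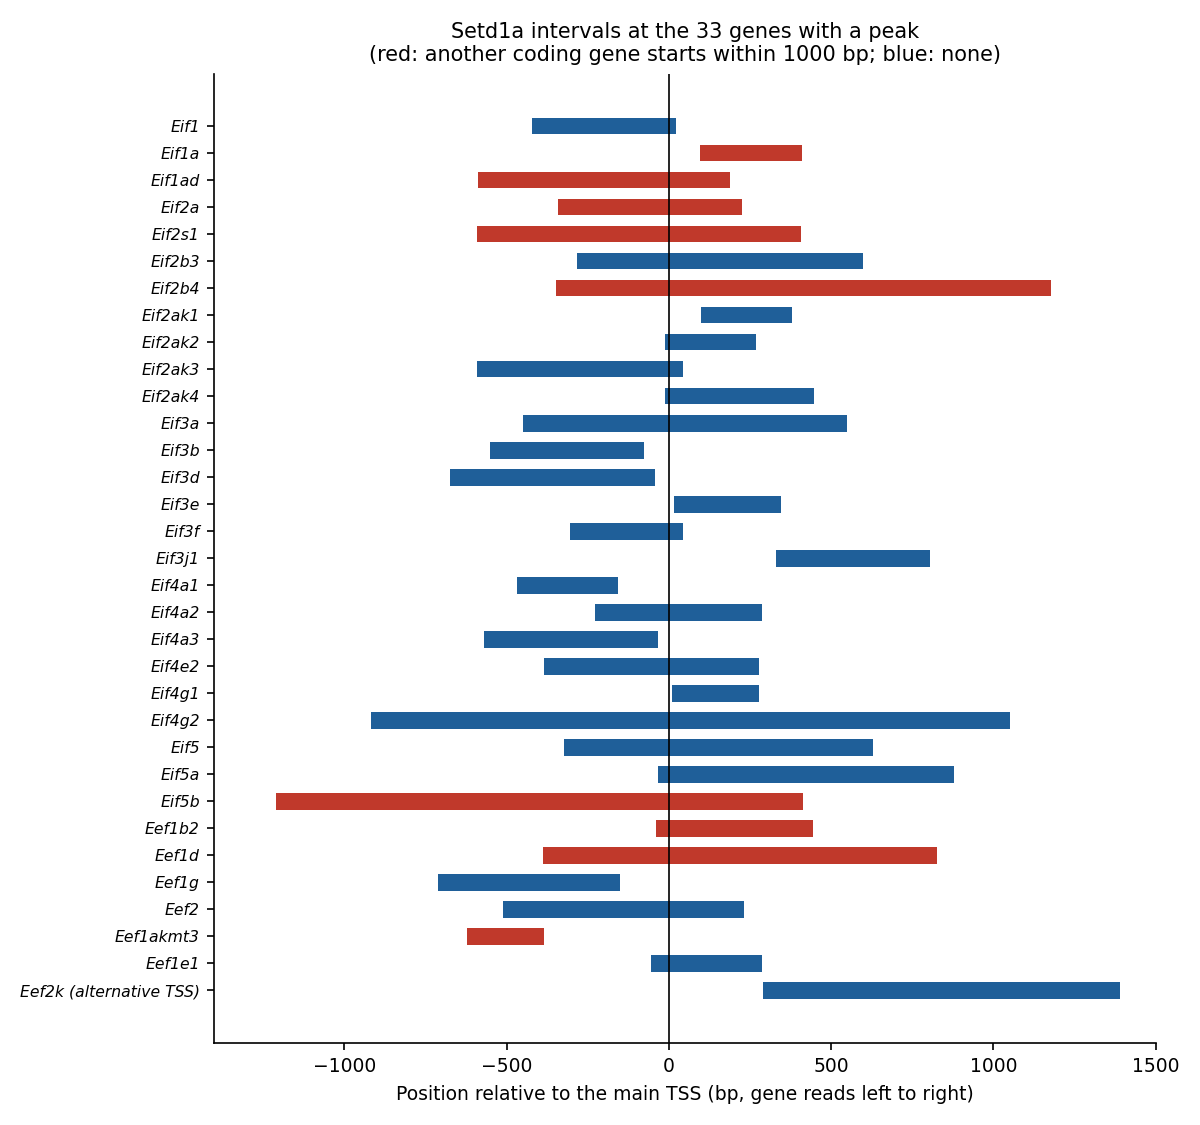
Extent of the Setd1a interval at each of the 33 genes in bp from the main TSS (for Eef2k, from its alternative TSS), oriented so that every gene reads left to right, in red where another protein-coding gene also starts within 1000 bp of the interval. The widest bars are those of Eif4g2 (1968 bp) and Eif5b (1625 bp), and 9 of the 33 bars are red.

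At 9 of the 33 genes the interval also lay within 1000 bp of a TSS of another protein-coding gene, so it cannot be given to 1 of the 2. The share was 27.3%, against 29.8% of all protein-coding genes with a peak. The neighbours were Mettl1 (Eef1akmt3), Ndufs1 (Eef1b2), Tigd5 (Eef1d), Tmed7 (Eif1a), Banf1 (Eif1ad), Serp1 (Eif2a), Snx17 (Eif2b4), Atp6v1d (Eif2s1) and Txndc9 (Eif5b), each transcribed from the opposite strand. The closest TSSs of the 2 genes were 3 bp apart at Eef1b2 and Ndufs1 and 181 bp apart at Eif2s1 and Atp6v1d, with the others between these. Giving each interval only to the protein-coding gene whose TSS was nearest its midpoint left 29 of the 33, without Eef1akmt3, Eif1ad, Eif2s1 and Eif5b, against 19.3% of protein-coding genes counted in the same way. The widths of 1625 bp at Eif5b, 1524 bp at Eif2b4 and 1216 bp at Eef1d therefore belong to regions shared with Txndc9, Snx17 and Tigd5.

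The promoters of the group were rich in CpG. The CpG ratio, the observed over the expected number of CG dinucleotides between 250 bases before and 50 after the main TSS, had a median of 0.877 (quartiles 0.736 and 0.992) at the 33 genes with a peak and 0.733 (quartiles 0.552 and 0.869) at the 32 without. The ranges overlapped widely, from 0.427 to 1.15 with a peak and from 0.148 to 1.22 without. Over all protein-coding genes the median was 0.824 with a peak and 0.43 without, so the factor genes without a peak had a higher median ratio than protein-coding genes without one. Among the factor genes with a ratio of at least 0.9, 15 of 22 had a peak (68.2%), against 47.0% of protein-coding genes in that range. Between 0.6 and 0.9 it was 16 of 30 (53.3%) against 34.7%, and under 0.6 it was 2 of 13 (15.4%) against 7.26%.

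The share of genes with a peak was also read among CpG-rich promoters alone, taken as those with at least 50% G and C and a CpG ratio of at least 0.6. Of the 50 factor genes with such a promoter 29 had a peak, a share of 58.0% (95% Wilson interval 44.2% to 70.6%), against 39.7% of the 9384 protein-coding genes with one. Of the other 15 factor genes 4 had a peak. Of all 20807 protein-coding genes 4682 had a peak, and 3725 of these had a CpG-rich promoter. The protein-coding genes without a CpG-rich promoter numbered 11423. The promoter ratio did not separate the genes, since Eif2b1 (1.22) and Eif4b (1.21) had no peak and Eef1akmt3 (0.427) had one. The interval of Eef1akmt3 lay wholly upstream of that promoter window, however, and its own CpG ratio was 0.905. The promoters of the pairs printed above went in both directions. Eif5a2 (0.923) and Eif4g3 (1.1), without a peak, had higher promoter ratios than Eif5a (0.786) and Eif4g1 (0.782). Eif4e (0.457) and Eif1b (0.764), also without a peak, had lower ones than Eif4e2 (0.734) and Eif1 (0.88). The intervals themselves had ratios of 1.06 at Eif5a, 0.944 at Eif4g1, 0.849 at Eif4e2 and 0.886 at Eif1.

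**Figure D5:**
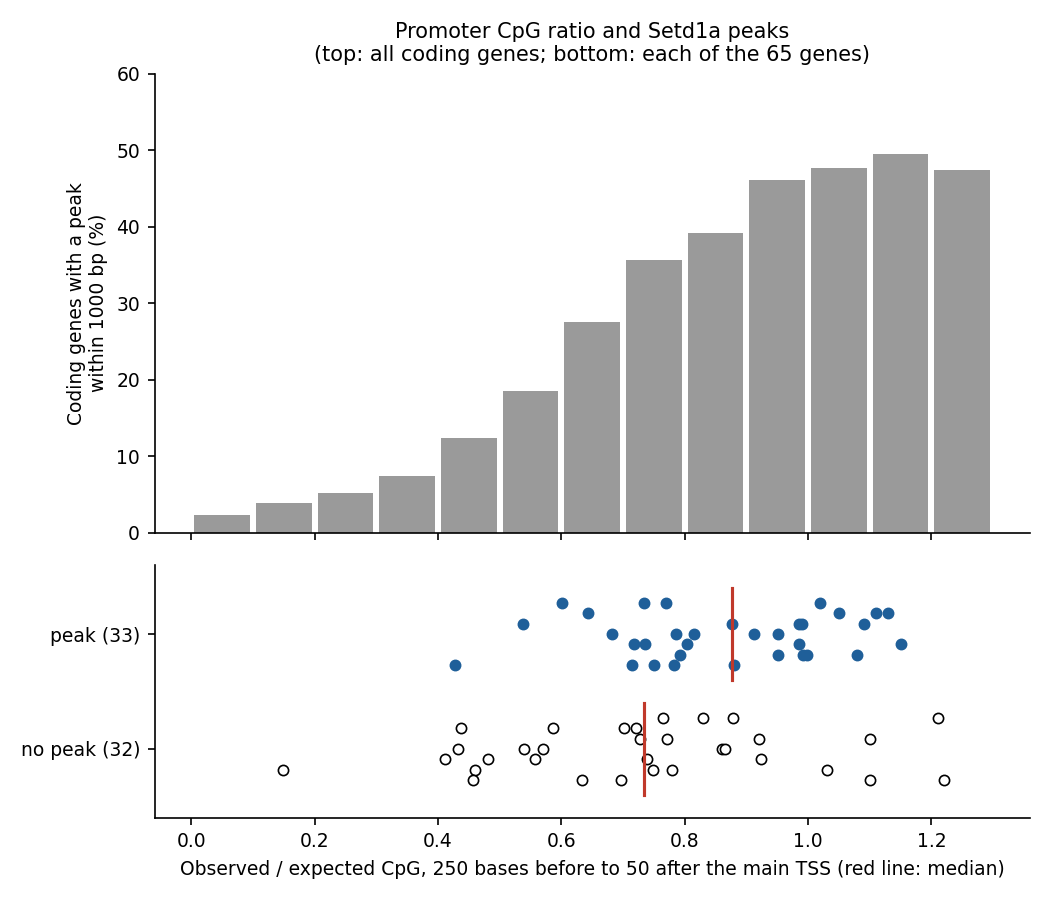
Top, percent of protein-coding genes with a Setd1a interval within 1000 bp by CpG ratio of the promoter in bins of 0.1, with bins of fewer than 20 genes left out. Bottom, the CpG ratio of each of the 65 genes with (filled) and without (open) a peak, with medians of 0.877 and 0.733 as red lines.

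Short motifs were counted on both strands of the same promoter windows, as letters and not as bound sites. The GC box GGGCGG was in 48 of 65 promoters (73.8%), against 46.1% of protein-coding promoters, and it was as common with a peak (24 of 33) as without (24 of 32). The ETS core CCGGAAG was in 19 (29.2%, against 11.4%), of which 7 had a peak and 12 did not. The E-box CACGTG was in 9 (13.8%, against 7.78%), namely in the promoters of Eef1akmt4, Eef2, Eef2k, Eif3a, Eif3f, Eif3k, Eif4g1, Eif4h and Eif5a2. The printed Eif4g1 promoter held it 2 times and Eif5a2, without a peak, 1 time. The NRF1 core GCATGCGC was in 4 (6.15%, against 3.47%) and the CCAAT box CCAAT in 19 (29.2%, against 38.2%). The TATA box TATAAA was in 4 (6.15%, against 12.7%) and the YY1 core AAGATGGCG in 1, Eif3e (1.54%, against 1.86%). Among genes with a peak alone, the GC box was in 72.7% of factor genes and 69.0% of protein-coding genes. The ETS core was in 21.2% and 18.9% of these. There the order turned for the NRF1 core (3.03%, 1 factor gene, against 7.11%) and the TATA box (9.09%, 3 factor genes, against 5.6%). A match here is a run of letters, and matches to different motifs were counted independently, so the same base could count for more than 1.

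Many mRNAs for the translation apparatus begin with a terminal oligopyrimidine (TOP) tract, a cytosine followed by pyrimidines, through which TOR controls their translation. Of 9 genes listed as TOP mRNAs, 6 had a peak (Eef1b2, Eef1d, Eef1g, Eef2, Eif3e and Eif3f) and 3 did not (Eef1a1, Eif3h and Eif4b). The share with a peak was 50.8% among the 65 genes, to which all 9 belong, and 22.5% among all protein-coding genes. At the annotated main TSS exactly, only 2 of the 65 genes, Eif2s1 and Eif3f, began with C and at least 4 further pyrimidines (3.08%, against 2.32% of protein-coding genes). Within 5 bases of it 20 did (30.8%, against 18.5%), so the count depends on the annotated base. Of these 20 genes, 10 had a peak. Of the 9 listed genes only 1 began so exactly and 4 within 5 bases, so most of them did not meet this rule. The 25 bases around the TSS of a gene with such a start, Eif3f, and of Eef1g and Eef1a1, where pyrimidine runs lie beside the annotated base, are printed with that base, the 11th, in capitals.
Eif3f: taggctctctCtctttctcggcaag
Eef1g: cccctcgcttTttccaactcagcgg
Eef1a1: ctccgccctcTtcccgagggtgggg

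Other genes of translation that the naming rule leaves out were counted in the same way. Of 56 such genes 28 had a peak, against 22.5% of all protein-coding genes. Of 11 genes of TOR signalling 7 had one, among them Mtor, which encodes the kinase that phosphorylates the 4E-binding proteins (1036 bp over the TSS), and Akt1s1, which encodes an inhibitor of its complex (1636 bp over the TSS). Rptor, its adaptor, lay 4789 bp from the nearest interval. Of 7 other genes of the integrated stress response 5 had a peak. Among them was Atf4, the transcription factor translated when eIF2 is phosphorylated (1416 bp over the TSS), while the phosphatase subunit gene Ppp1r15a lay 1580 bp away.

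The partners of the cap and the poly(A) tail gave 7 of 11, with Pabpc1, the main poly(A)-binding protein, under an interval of 555 bp and Mknk1 and Mknk2, the kinases of eIF4E, under intervals of 333 and 817 bp. Termination, recycling and rescue gave 5 of 10, with Etf1, the release factor, under an interval of 644 bp and its partner Gspt1 at 80184 bp. The enzymes that make hypusine on eIF5A and diphthamide on eEF2 gave 2 of 8, and for the hypusine pathway Dohh had an interval of 273 bp over the TSS whereas Dhps, which acts before it, lay 34629 bp away. The mitochondrial translation factors gave 2 of 9 (22.2%), which is also near the background.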

How the data were processed

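The data were Setd1a CUT & RUN intervals from quiescent NSC cultures labelled WT. The authors trimmed the reads (Trimmomatic 0.32), mapped them uniquely to mm10 (Bowtie2 2.1.0), removed reads of low mapping quality (SAMtools 0.1.18), called peaks per replicate (MACS2 2.2.8, default parameters) and intersected the peak sets of both libraries. The deposited table gives the chromosome, start and end of each interval in bp, with no score. The sources used here do not state whether the IgG library served in peak calling or how intervals of the replicates were joined. Demultiplexing used bcl2fastq 2.17.1.14.

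Distances to GENCODE M21 TSSs and sequence features of GRCm38 were computed with Python 3.11.15, numpy 2.4.6, pandas 2.3.3, pysam 0.24.0 and samtools 1.23.1, with Wilson intervals from scipy 1.17.1 and figures from matplotlib 3.10.9. Starts were read as 1-based. The main TSS was that of the protein-coding transcript with the best APPRIS tag, then the best support level, then the 5′-most position. The distance step was tested on simulated data, where it recovered 200 of 200 placed intervals, and it equalled an exhaustive search for 65 of 65 genes. Every gene of the group is named, with coordinates for the 5 widest intervals, for the genes on either side of the threshold and for related genes of which 1 had a peak. The lists of other translation genes held 58 names, of which 56 were found in the annotation. The genes and lists were chosen with earlier results of these data known. No test was run, since the list has no replicate columns and genes are not replicates. No protein sequences were used here.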

Additional observations from a re-analysis of the deposited data

How the results depend on the processing

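The count of 33 genes with a peak was the same with a window of 500 or 3000 bp and with only protein-coding or only basic transcripts. It was 31 from the 5′-most TSS alone (without Eef2k and Eif4g1), 29 when each interval went to the nearest protein-coding gene only, 29 with intervals of at least 300 bp (without Eef1akmt3, Eif2ak1, Eif2ak2 and Eif4g1) and 25 with overlap required. The matching shares of protein-coding genes ran from 17.2% to 24.1%. With RefSeq starts, tried after seeing the data, 26 of 49 matched genes had a peak, and the same 49 gave 26 with GENCODE starts with 0 calls that differed. The comparison with CpG-rich promoters and the tolerance of 5 bases for TOP starts were also chosen after seeing the data.

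The 25 genes with a peak over a TSS became 23 with protein-coding transcripts only and 22 with intervals of at least 300 bp. The median width was 565 bp after intervals within 1000 bp of each other were merged. The 9 shared intervals became 11 when the other gene could start up to 3000 bp away. The median CpG ratio at genes with a peak was 0.85 over 500 bases each side of the TSS, and the other translation genes with a peak rose from 28 to 30 at 3000 bp. Motif counts depended on the window, and the shares of protein-coding promoters rose with it. Over 500 bases each side the E-box was in 23 promoters (35.4%, against 17.2%) and the CCAAT box in 34 (52.3%, against 69.6%). The TATA box was in 15 (23.1%, against 31.4%) and the YY1 core in 4 (6.15%, against 3.75%).

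No paired analysis was possible because both Setd1a libraries enter a single list without replicate columns, and for the same reason no library was left out. Depth and interval heights are unknown, so weak binding at genes without an interval was not detectable here.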
